A study of Mus musculus with 3 samples.

Results

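Interferon-stimulated genes are the genes that cells switch on when they receive an interferon, and 34 of them were followed here on 3 Affymetrix mouse expression arrays of back skin. Members were found by their gene symbol in the platform annotation. Of the 34, 32 had at least 1 probe set that names no other gene, out of 18193 genes with such a probe set, and these 32 were read from 52 of the 45037 probe sets that are not controls. Isg15, the ubiquitin-like modifier after which several members are named, shares its only probe set with Gm9706, and Ifi44 had no probe set under its name, so neither was analysed here.

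The arrays carried RNA of male mice, 1 pool and 1 array per group. WT was C57BL/6J on an AIN-93-based diet (5 mice), KO was Interleukin-10 knockout on the same diet (7 mice), and KOE was Interleukin-10 knockout on that diet with 8% pESM, a powder of eggshell membrane (6 mice). Feeding lasted 28 weeks from an age of 4 weeks, the mice lived in single cages, the dermal white fat was taken off the skin, and 250 ng of pooled RNA was used. The KO mice were homozygous for the tm1Cgn allele and descended from B6.129P2 males crossed with C57BL/6J females. The methods do not describe the WT mice as their littermates, and the sources used here do not say which mice of a group entered its pool.

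With 1 array per group there is no spread between replicates, so no difference below was tested and no p-value is given. Values are probe set signals on a linear scale, and a difference is the log2 fold change between 2 arrays. A gene counts as higher or lower when the ratio is at least 1.5 and 1 of the arrays compared reaches 40. The methods of the study state the fold and the signal of this cut-off but not on how many arrays the signal is needed. A gene that reaches 40 on only 1 of the arrays had to differ, so such genes are named where they are counted. A member with several probe sets is described by the one with the highest mean signal. Probe sets of 1 gene, read on the same 2 arrays, differed in their KO vs. WT log2 fold change. The SD was 0.71 at mean signals of 40 to 200, 0.31 at 200 to 1000 and 0.17 above that. This SD holds differences between probe sets but not between pools or mice, so it does not measure the error of a difference between groups.

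Type I interferons are made by most cells that sense viral or misplaced nucleic acid, and they act through a complex with Stat2 and Irf9 that binds the interferon-stimulated response element (ISRE). Interferon-gamma comes from T and natural killer cells, acts on genes with the gamma-activated site (GAS), and is known in skin for raising antigen presentation on keratinocytes. IL-10 is a cytokine that restrains macrophages and T cells, among them those that make interferon-gamma. The Ifit, Oas and Mx families are taken here as type I type members, and the Gbp genes, Irf1, the Psmb genes and Tap1 as interferon-gamma type members, although many of these genes answer to both interferons.

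The promoters carry these elements as letters that can be read. Windows from 250 bases before to 50 bases after the transcript start were taken from RefSeq (GRCm38.p6), and 26 of the 34 members had one. Dhx58, Mx1, Mx2, Oas2, Parp9, Parp14, Usp18 and Zbp1 had none. The ISRE was searched as GAAANNGAAA and the GAS as TTCNNNGAA, on both strands. An ISRE match stood in the windows of 12 of the 26 members (46.2%), against 3.99% of all 27025 genes with a window, and a GAS match in 8 of 26 (30.8%), against 9.55% of all genes. Among type I type members 4 of 7 had an ISRE match and 2 of 7 a GAS match, and among interferon-gamma type members each motif was matched in 2 of 6. Where ISRE matches repeat they can overlap, as in Gbp3, Oas1a, Bst2 and Isg15, and in Bst2 an ISRE match also overlaps a GAS match.

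Of the members printed, Rsad2 and Ifit1 had the highest 2 ratios of KO to WT among members above 40, Oas1a and Gbp3 were the 2 higher in KOE than in KO, Ifit3 is the neighbour of Ifit2 on chromosome 19, and Irf1 is a factor with a GAS match and no ISRE match in this window. Each run is positions -160 to -1 before the transcript start, 5′ to 3′ on the strand of the gene, with ISRE and GAS matches in capitals. They lie at chr12:26456453-26456612 (minus strand, Rsad2), chr19:34640729-34640888 (plus, Ifit1), chr19:34583369-34583528 (plus, Ifit3), chr5:120907526-120907685 (minus, Oas1a), chr3:142559884-142560043 (plus, Gbp3) and chr11:53769854-53770013 (plus, Irf1).
Rsad2: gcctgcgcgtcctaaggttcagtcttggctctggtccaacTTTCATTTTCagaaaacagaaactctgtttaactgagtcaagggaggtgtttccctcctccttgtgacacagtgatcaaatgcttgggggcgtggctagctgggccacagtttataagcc
Ifit1: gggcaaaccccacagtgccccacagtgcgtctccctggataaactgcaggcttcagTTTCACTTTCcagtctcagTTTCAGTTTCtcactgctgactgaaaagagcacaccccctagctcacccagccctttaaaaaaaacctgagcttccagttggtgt
Ifit3: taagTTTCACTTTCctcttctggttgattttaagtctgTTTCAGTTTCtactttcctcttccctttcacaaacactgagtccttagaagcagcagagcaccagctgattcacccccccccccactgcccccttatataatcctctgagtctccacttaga
Oas1a: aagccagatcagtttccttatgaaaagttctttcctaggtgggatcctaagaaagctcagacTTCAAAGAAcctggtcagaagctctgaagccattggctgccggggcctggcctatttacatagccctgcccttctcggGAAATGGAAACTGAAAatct
Gbp3: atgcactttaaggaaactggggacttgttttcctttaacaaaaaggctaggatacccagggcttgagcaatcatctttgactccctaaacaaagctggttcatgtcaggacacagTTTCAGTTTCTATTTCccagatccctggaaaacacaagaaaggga
Irf1: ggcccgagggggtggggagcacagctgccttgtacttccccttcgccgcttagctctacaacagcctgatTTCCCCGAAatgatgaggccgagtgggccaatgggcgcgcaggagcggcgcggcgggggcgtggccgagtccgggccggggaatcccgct
Ifit1 and Ifit3 each show TTTCACTTTC followed by TTTCAGTTTC, which are ISRE matches on the opposite strand. In Oas1a the capitals near the start are 2 overlapping ISRE matches, and TTCAAAGAA is a GAS match. In Irf1 the capitals are the GAS match TTCCCCGAA. A match describes the letters only and does not show that a factor binds there.

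The arrays differed strongly in other tissues of the skin. Of 16 measured hair shaft and inner root sheath genes, all 16 were lower in KO and in KOE than in WT, and their summed signal was 236055 (WT), 1274 (KO) and 1154 (KOE). Krt33b, Krt34, Krt35 and Krt86 were under 40 in both KO and KOE. Krtap11-1 and Krtap3-1 were so in KO only, and Krt25, Krt27, Krt71 and Krt33a in KOE only. Krt25, an inner root sheath keratin, had 31928 (WT), 51.5 (KO) and 21.4 (KOE). Of 19 skeletal muscle genes, 17 were lower in KO against WT and 18 higher in KOE against KO, with sums of 38662 (WT), 13181 (KO) and 53523 (KOE), and Acta1, the actin of skeletal muscle, had 5093, 2497 and 9799. Krt10, a keratin of the upper epidermis, had 29571, 33694 and 36463, and the epidermis and dermis list summed to 209211, 207733 and 226447. Of its 13 genes only Col1a1, a chain of dermal collagen, was past the cut-off in KO vs. WT or KOE vs. KO. It was lower in KO than in WT and higher in KOE than in KO (16664, 5880 and 16038). In KOE vs. WT, Pecam1 was higher (466 in WT and 732 in KOE) and Flg lower (2139 and 1326). The part of hair and muscle in the results below was not tested. Il10 itself had a signal of 17.0 (WT), 680 (KO) and 401 (KOE). The sources used here do not place its probe set relative to the altered part of the gene, so this does not check the labels, and WT, KO and KOE stand for the arrays so labelled. In pooled whole skin, fewer cells of a type and less RNA per cell cannot be told apart.

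**Figure D1:**
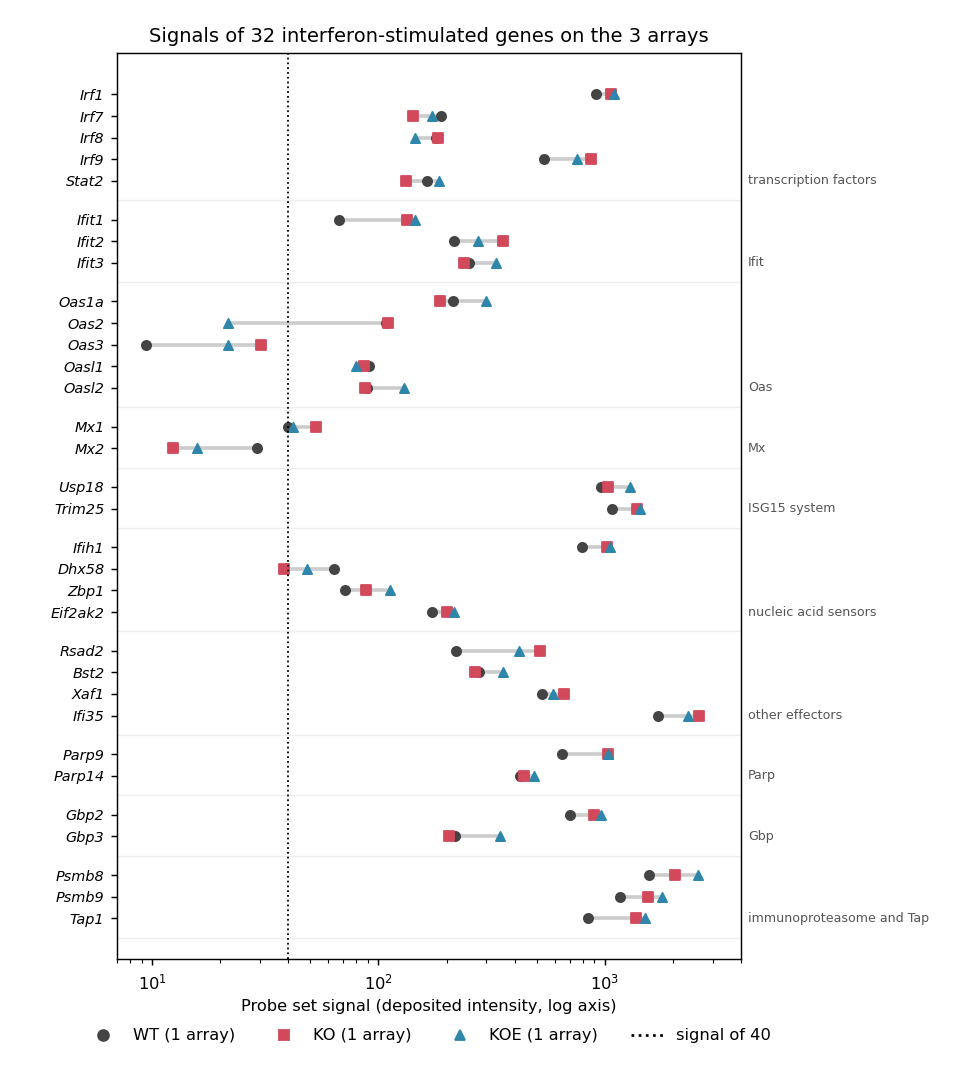
Signals of the 32 measured interferon-stimulated genes on the WT, KO and KOE arrays (log axis, 1 array of pooled RNA per group), grouped by role, with a dotted line at 40. Most grey bars, which join the lowest and highest array of a gene, are short, and Rsad2, Ifit1 and Oas2 have long ones above or across the line.

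The members as a whole were higher in KO than in WT more often than lower. Of the 30 members that reached 40 on either array, 7 were higher past the cut-off (Rsad2, Ifit1, Ifit2, Tap1, Irf9, Parp9 and Ifi35), where 10.9% of all 14495 genes tested were higher, and 1 was lower (Dhx58), where 14.5% of all genes were so. After scaling to a common median signal 14 were higher and none lower, where 23.2% and 8.88% of all genes were. The ratio was above 1 for 21 of the 30 (70.0%), against 51.3% of all genes, and the median log2 fold change was 0.27, against 0.01 over all genes. With signals under 40 set to 40, the median over the 32 measured members was 0.22. Dhx58 alone of the 8 called members was under 40 on 1 of the arrays. Their summed signal was 14549 in WT and 19073 in KO.

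The split by signal shows where the members stood apart from other genes. At mean signals of 200 to 1000, 12 members had a KO vs. WT median of 0.34 on the log2 scale, and all genes there had -0.00. Above 1000, 7 members had 0.39, and all genes had 0.09. At 40 to 200, 11 members had 0.02, and all genes had -0.15. The median of the members was above that of all genes in each of the 3 ranges.

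Rsad2, which encodes the antiviral enzyme viperin, had the highest ratio of KO to WT among members above 40. Its signal was 221 (WT), 516 (KO) and 418 (KOE), which is 2.34-fold in KO vs. WT and a log2 fold change of 1.22. The other probe sets of the gene gave 102, 257 and 203, and 129, 206 and 187. All 3 probe sets were past the cut-off, with log2 fold changes of 0.67 to 1.33, and in all 3 KOE lay between WT and KO.

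The Ifit genes encode proteins that bind foreign RNA and block its translation. Ifit1 had signals of 67.3 (WT), 134 (KO) and 145 (KOE), a ratio of 1.99 in KO vs. WT. Ifit2 had 215, 357 and 276, a ratio of 1.66. Ifit3, the gene next to Ifit2, had 251, 239 and 331. On the deposited signals KO was the highest array for Ifit2, the lowest for Ifit3 and between the others for Ifit1. The Ifit3 log2 fold change in KO vs. WT was only -0.08. It was 0.19, 0.11 and 0.04 after median, quantile and cyclic loess scaling, so its direction was not settled. Each of these genes was read from 1 probe set.

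The Oas genes make the short oligoadenylates that activate RNase L, and none of them was past the cut-off in KO vs. WT. Oas1a had 213 (WT), 188 (KO) and 298 (KOE), which is 1.59-fold in KOE vs. KO. Oas2 had 108 and 110 in WT and KO and 21.7 in KOE, which is under 40, so no fold is given and the call ends where 40 is required in both arrays. Oas1a was highest and Oas2 lowest on the KOE array, each at 1 probe set. Oas3, beside Oas2 on chromosome 5, was under 40 on all 3 arrays, with 9.37, 30.3 and 21.6, and no direction is read from it. Oasl1, an Oas-like protein that in mice restrains the translation of Irf7, had 91.2, 86.5 and 79.7. Oasl2, the adjacent gene, had 88.8 (WT), 87.3 (KO) and 130 (KOE), and its ratio of 1.48 in KOE vs. KO was just under the cut-off.

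Mx1 and Mx2 encode dynamin-like antiviral GTPases and carry defective alleles in most laboratory strains, C57BL/6J among them. Mx1 had signals of 39.8 (WT), 53.0 (KO) and 41.9 (KOE), close to the limit of 40 on each array. Mx2 had 29.2, 12.4 and 15.8 and stayed under it. The Mx genes therefore gave no difference that can be read at this signal.

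The transcription factors differed in direction. Irf9, the DNA-binding partner of Stat2, had 539 (WT), 872 (KO) and 752 (KOE), a ratio of 1.62 in KO vs. WT. Stat2 had 164, 132 and 186, and its other probe set had 140, 125 and 136. The KO array was thus the highest for Irf9 and the lowest for Stat2. Irf7, the amplifier of the type I response, had 188, 142 and 173, also lowest in KO. Irf1, a first target of interferon-gamma, had 911, 1070 and 1096 and was under the cut-off in each comparison. Irf8, a factor of macrophages and dendritic cells, had 180, 183 and 145 at its stronger probe set and 106, 97.7 and 191 at the other. For KOE vs. KO these are log2 fold changes of -0.34 and 0.97, so its direction was not settled.

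Of the 4 members that sense nucleic acid, 3 were lowest in WT and highest in KOE at their strongest probe set. Ifih1, the RNA sensor also called Mda5, had 795 (WT), 1023 (KO) and 1051 (KOE). Eif2ak2, the kinase PKR that stops translation when it binds double-stranded RNA, had 173, 200 and 217. Zbp1, a sensor of Z-form nucleic acid, had 71.4, 88.1 and 113, which is 1.58-fold in KOE vs. WT. Only this last ratio of the 3 genes was past the cut-off at the strongest probe sets. The second probe set of Zbp1 had 40.5, 61.3 and 70.2, past the cut-off in KO vs. WT as well. Dhx58, the RNA sensor also called Lgp2, had 63.9, 38.4 and 48.3, a ratio of WT to KO of 1.67. Its second probe set, of nearly the same mean signal, had 18.2, 40.7 and 88.4. The only member lower in KO than in WT was therefore higher in KO at its other probe set above 40.

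The genes of the ISG15 system and the other effectors had mostly strong signals. Usp18, which takes ISG15 off proteins and damps the type I receptor, had 961 (WT), 1033 (KO) and 1291 (KOE). Trim25, a ubiquitin and ISG15 ligase, had 1076, 1395 and 1433. Both were highest in KOE and under the cut-off at these probe sets. The other probe sets of Trim25 had 807, 1057 and 1045, highest in KO, and 79.6, 114 and 141, past the cut-off in KOE vs. WT. Ifi35 had 1725, 2607 and 2342, which is 1.51-fold in KO vs. WT and just inside the cut-off, and its 2 other probe sets had log2 fold changes of 0.13 and 0.41 there. Xaf1, a protein that favors cell death, had 527, 663 and 588. KO was the highest array for Xaf1 and at the strongest probe set of Ifi35. The 2 other probe sets of Ifi35 were highest in KOE, with 502, 667 and 703, and 533, 581 and 725. Bst2, which tethers budding virus to the cell, had 279, 266 and 354, with KOE highest.

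Parp9 and Parp14, members of the ADP-ribosyltransferase family, lie close together on chromosome 16. Parp9 had 645 in WT and nearly equal signals of 1039 and 1037 in KO and KOE, with a ratio of 1.61 in KO vs. WT. Parp14 had 420, 439 and 489 at its stronger probe set. A weak second probe set of Parp14 had 8.55, 49.96 and 43.7, so both were lower in WT than in KO, far apart in size, and they lay in opposite directions between KO and KOE.

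In all 6 interferon-gamma type members KOE was the highest array. Tap1, a subunit of the transporter that carries peptides to MHC class I, had 845 (WT), 1376 (KO) and 1511 (KOE), which is 1.63-fold in KO vs. WT. Its 3 other probe sets were under 40 on every array. Psmb8 and Psmb9, catalytic subunits of the immunoproteasome that cuts those peptides, flank Tap1 on chromosome 17. Psmb8 had 1565, 2046 and 2595, and Psmb9 had 1170, 1547 and 1784. In all 3 of these neighbours WT was lowest and KOE highest, and against WT the KOE array was 1.79-fold for Tap1, 1.66-fold for Psmb8 and 1.52-fold for Psmb9. A weak second probe set of Psmb8, at 64.5, 51.1 and 89.7, was lowest in KO.

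Gbp2 and Gbp3 encode guanylate-binding GTPases that attack the membranes of intracellular microbes. Gbp2 had 700 (WT), 897 (KO) and 967 (KOE), and its second probe set had 678, 829 and 900. Gbp3 had 217, 206 and 345, which is 1.68-fold in KOE vs. KO. KOE was the highest array for both genes, and WT and KO were nearly even for Gbp3.

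**Figure D2:**
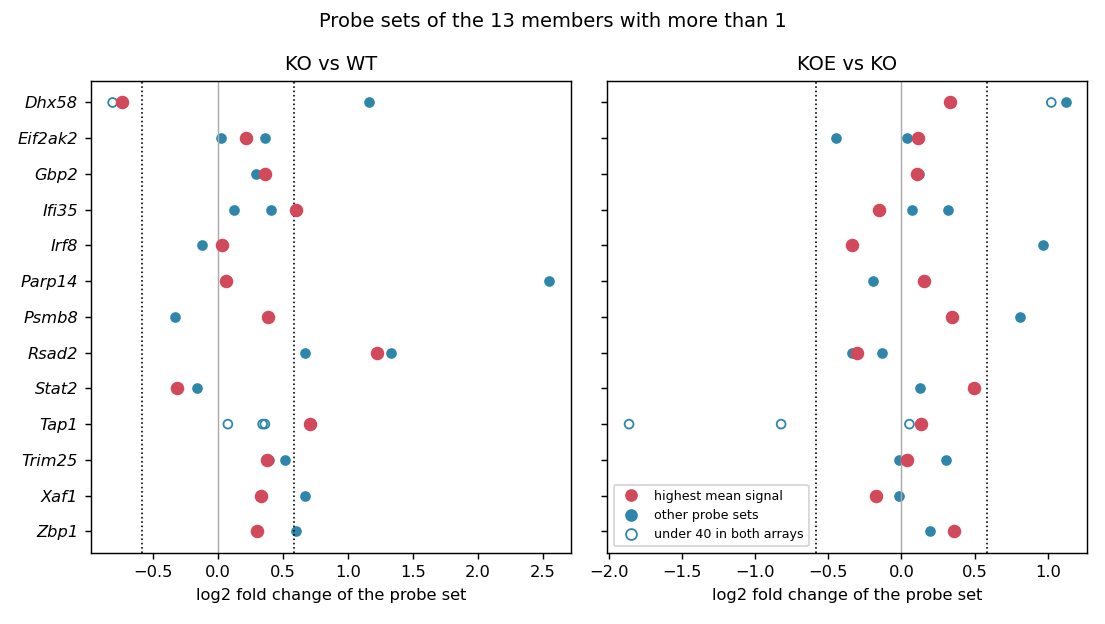
Log2 fold changes of all probe sets of the 13 members with more than 1, for KO vs. WT (left) and KOE vs. KO (right). Red points are the probe sets with the highest mean signal, open points are under 40 in both arrays of the comparison, and dotted lines mark 1.5-fold. The 3 points of Rsad2 lie to the right of the line in KO vs. WT, and those of Dhx58 lie on both sides of 0.

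Of the 12 members with at least 2 probe sets above 40, the probe sets lay on the same side of 0 for 9 in KO vs. WT, for 7 in KOE vs. KO and for 8 in KOE vs. WT. The exceptions in KO vs. WT were Dhx58, Irf8 and Psmb8. Parp14 lay on one side of 0 there but had the widest gap, from 0.06 to 2.55. In KOE vs. KO the exceptions were Eif2ak2, Ifi35, Irf8, Parp14 and Trim25. In KOE vs. WT they were Dhx58, Eif2ak2, Irf8 and Stat2.

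In KOE vs. KO the members were close to even. Of 30 members tested, 2 were higher past the cut-off (Gbp3 and Oas1a), where 10.9% of all 14594 genes were higher, and 1 was lower (Oas2), where 5.33% were lower. The ratio was above 1 for 20 of the 30 (66.7%), against 53.2% of all genes, and the median log2 fold change was 0.12, against 0.02. Scaled to a common median signal, this median was -0.042, with -0.14 over all genes, so its sign depended on the scaling, and 1 member was higher and 1 lower. After quantile normalization 1 was higher and 2 were lower. The summed signal of the members was 19073 in KO and 20296 in KOE.

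The 7 members higher in KO than in WT had small differences between KOE and KO. Their log2 fold changes in KOE vs. KO were -0.30 for Rsad2, 0.12 for Ifit1, -0.37 for Ifit2, 0.14 for Tap1, -0.21 for Irf9, -0.00 for Parp9 and -0.15 for Ifi35. All 7 kept signals above WT on the KOE array. They had been called against the same WT array, and a low deviation of that array alone would give this too. KO vs. WT and KOE vs. KO share the KO array, so a deviation of that array alone would move them in opposite directions.

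In KOE vs. WT, 8 of 30 members were higher (Ifit1, Rsad2, Tap1, Psmb8, Parp9, Gbp3, Zbp1 and Psmb9), where 12.4% of all 14784 genes were higher, and 1 was lower (Oas2), where 10.4% were lower. The ratio was above 1 for 25 of the 30 (83.3%), against 55.2% of all genes. The median log2 fold change was 0.41, against 0.05. Over the 30 members, both KO and KOE were above WT in 19, both were below WT in 3 (Irf7, Oasl1 and Dhx58), only KOE was above in 6 and only KO in 2. Both are set against 1 WT array, so a deviation of that array alone would move them together. The most frequent order was WT, KO, KOE from low to high, in 12 members.

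**Figure D3:**
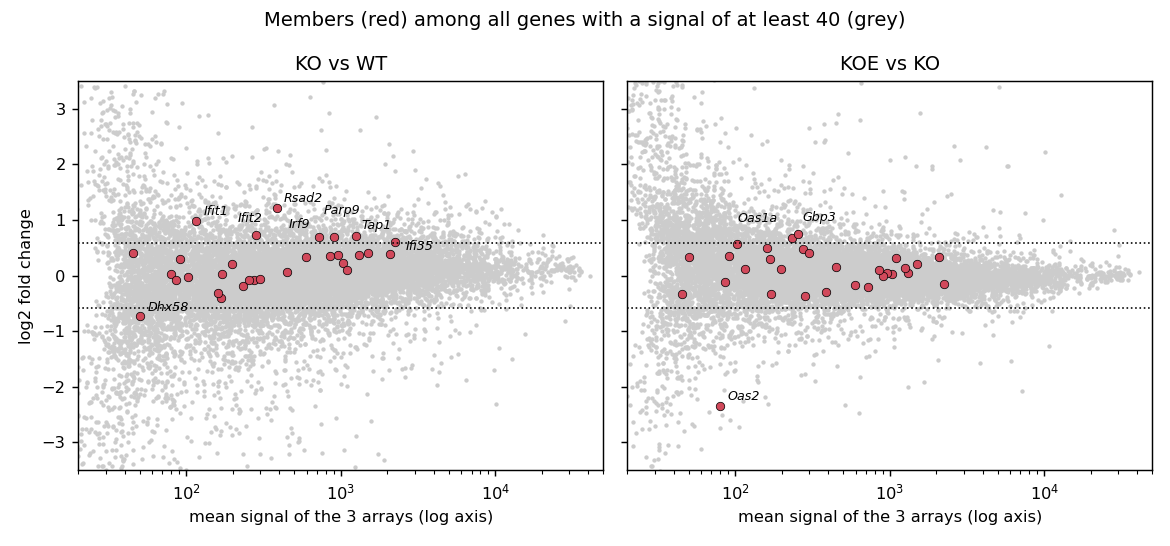
Log2 fold change against the mean signal of the 3 arrays (log axis) for all genes that reach 40 on either array (grey) and for the interferon-stimulated genes (red). The left panel is KO vs. WT and the right panel is KOE vs. KO. Dotted lines mark 1.5-fold, members past it are named, and 186 and 72 genes lie beyond the plotted range. The members lie within the grey cloud, 7 above the upper line on the left and 2 on the right.

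Type I type members and interferon-gamma type members were then set side by side. In KO vs. WT, the median of the 8 type I type members above 40 was -0.00 on the log2 scale, with 2 higher past the cut-off, none lower and 4 of 8 above 1. Over all genes 10.9% were higher, 14.5% were lower and 51.3% were above 1. The 6 interferon-gamma type members had a median of 0.37, with 1 higher, none lower and 5 of 6 above 1. The difference between the medians was 0.37 on the log2 scale. Across the alternative scalings, the offset and the probe set choices it stayed above 0, from 0.10 to 0.37. The low end came from quantile and cyclic loess normalization, under which the type I median was 0.26 and 0.21.

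In KOE vs. KO the type I type median was 0.00, with Oas1a higher and Oas2 lower, and the interferon-gamma type median was 0.17, with Gbp3 higher and 6 of 6 above 1, where 10.9% of all genes were higher, 5.33% were lower and 53.2% were above 1. After median scaling the interferon-gamma type median was 0.011, and Irf1, Gbp2 and Tap1 lay below 0 (-0.13, -0.051 and -0.024). The type I values ran from -2.34 to 0.67, and the interferon-gamma values from 0.03 to 0.75. In KOE vs. WT the medians were 0.38 and 0.64. Past the cut-off there were Ifit1 higher and Oas2 lower among 8 type I type members, and Gbp3, Psmb8, Psmb9 and Tap1 higher among 6 interferon-gamma type members, where 12.4% of all genes were higher and 10.4% lower. The gap between the types was 0.17 (0.16 to 0.35 over the same alternatives) in KOE vs. KO and 0.26 (0.14 to 0.26) in KOE vs. WT. Of the 8 type I type members, 5 lay in the range of 40 to 200, where probe sets of 1 gene scatter most, and of the 6 interferon-gamma type members 0 did. Of the latter, 4 lay above 1000. Over all genes the KO vs. WT median was -0.15 at 40 to 200 and 0.09 above 1000. For KOE vs. KO these medians were 0.16 and -0.03. The part of signal in the gaps between the types was not tested.

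**Figure D4:**
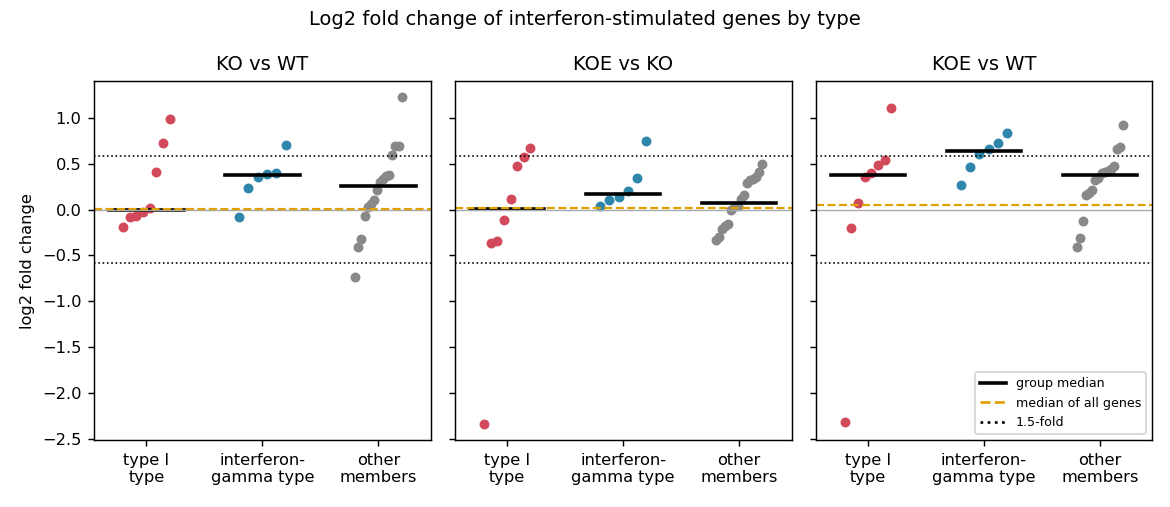
Log2 fold changes of the type I type, interferon-gamma type and other members in each comparison, with 1 point per gene that reaches 40 on either array. Black bars are medians, the dashed line is the median of all genes and dotted lines mark 1.5-fold. The interferon-gamma type median lies above the type I type median in each panel, 0.37 against -0.00 in KO vs. WT, and Oas2 lies alone at the bottom in both panels with KOE.

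Calls were counted by ISRE match, beside 10.9% of all genes higher in KO vs. WT and in KOE vs. KO. In KO vs. WT, of 10 tested members with a match, 2 were higher (Ifit1 and Rsad2) and the median log2 fold change was 0.07. Of 13 tested members without one, 4 were higher and the median was 0.38. For KOE vs. KO, 2 of the 10 with a match were higher (Oas1a and Gbp3) and none of the 13 without, with medians of 0.27 and 0.03, and Oas1a was under the cut-off after median or quantile scaling.

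The other genes of the pathway were counted from lists that hold no member. The ligands of type I and III interferon were at the edge of what the arrays can read. Of 20 listed, 9 were measured, and 2 reached 40 in WT or KO, Ifna1 with signals of 41.2 (WT), 10.2 (KO) and 48.1 (KOE) and Ifnz with 137, 159 and 297. Ifna2 had 4.38, 4.32 and 63.1. Of the 4 ligands above 40 in KOE or KO, Ifna1, Ifna2 and Ifna11 passed that limit only through KOE and so had to be higher there, and with signals under 40 set to 40 the median of the list was 0. Ifnz alone passed it on both arrays, with a ratio of 1.87. Ifng, the type II interferon, was under 40 on each array, with 11.2, 2.69 and 12.1. Of its inducers, Il18 had 2014 (WT), 3133 (KO) and 2100 (KOE), past the cut-off in KO vs. WT at 1.56-fold, and Il15 had 300.0, 324 and 350.0.

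The next 3 lists are to be read beside the shares over all genes, 10.9% higher and 14.5% lower in KO vs. WT and 10.9% and 5.33% in KOE vs. KO. Of 6 receptor genes, 2 were higher in KO than in WT and none was lower. Ifngr1, the ligand-binding chain for interferon-gamma, had 1762 (WT), 3545 (KO) and 2900 (KOE), and Il10rb, shared by IL-10 and type III interferon, had 761, 1251 and 984. Between KOE and KO no receptor was past the cut-off and all 6 ratios were below 1. Of 11 genes of the JAK-STAT signal and its regulators, 1 was higher in KO, Socs3, an inhibitor induced by many cytokines, with 577, 1391 and 906. Socs3 was lower in KOE than in KO, as was Socs1, with 95.8, 93.7 and 58.1. The kinase Jak1 had 2225, 3125 and 3029, and Irf2bp2, a cofactor of Irf2, had 2390, 2763 and 2222.

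Among 17 genes that sense nucleic acid upstream of interferon, 1 was higher in KO than in WT and none was lower. This was Cgas, the sensor of DNA in the cytosol, with 190 (WT), 334 (KO) and 234 (KOE). Tlr7, a receptor for single-stranded RNA, was the only gene of this list past the cut-off in KOE vs. KO, with 71.6, 97.8 and 11.2, and it was under 40 in KOE. Tbk1 and Irf3, the kinase and the factor that start interferon transcription, had 1625, 1596 and 1280, and 1526, 1561 and 1460, so both were within the cut-off.

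Further target genes were counted in the same way. Of 26 other type I targets, 6 were higher in KO than in WT and 1 was lower, where 10.9% and 14.5% of all genes were. Their median was 0.37 on the log2 scale, and 0.33 with signals under 40 set to 40. Isg20, an RNA exonuclease, had 333 (WT), 730 (KO) and 503 (KOE). Ly6e, a membrane protein that acts on virus entry, had 3145, 5937 and 5529, and Ifitm3, which blocks virus entry from endosomes, had 9333, 13714 and 12633. The gene lower in KO was Cxcl10, a chemokine for T cells, with 186, 74.4 and 132. Between KOE and KO 3 of 27 were higher and 3 were lower, where 10.9% and 5.33% of all genes were, and the median was 0.04. Ifi203 had 34.8, 37.6 and 88.1, and Oas1b had 31.3, 58.0 and 11.1. Of these calls, Ifi203, Sp110 and Oas1b were under 40 on 1 of the arrays, as Oas1b was in KO vs. WT.

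Of 17 other interferon-gamma targets, 4 were higher in KO than in WT and 1 was lower, where 10.9% and 14.5% of all genes were. But Cxcl11, Ido1 and Batf2 passed 40 only through KO and Cxcl9 only through WT. Of these calls, Ifi47 alone (362, 678 and 628) was above 40 on both arrays. The median was 0.37, and 0.21 with signals under 40 set to 40. In KOE vs. WT the same medians were 0.56 and 0.28. Nlrc5, the activator of MHC class I genes, had 1168, 1716 and 1666, and Serping1, an inhibitor of complement, had 11491, 13445 and 11760. Ido1, which breaks down tryptophan, had 6.26, 50.4 and 40.2. Cxcl9, a chemokine induced chiefly by interferon-gamma, had 196 (WT), 6.14 (KO) and 132 (KOE), so Cxcl9 and Cxcl10 were both lowest in KO. In KOE vs. KO 3 of 17 were higher and 2 were lower, where 10.9% and 5.33% of all genes were. Cxcl9 was among the 3 and passed 40 only through KOE. Gbp8, of the same family as Gbp2, had 53.9, 40.3 and 79.4, and Ciita, the activator of MHC class II genes, had 102, 76.4 and 120.

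The antigen presentation genes had few calls, at shares near those of all genes. Of 12 MHC class I genes, 1 was higher in KO than in WT (10.9% over all genes) and 10 had a ratio above 1, with a median of 0.27. B2m, the invariant chain of class I, had 23733 (WT), 27503 (KO) and 26958 (KOE), H2-K1 had 16219, 19163 and 20380, and H2-M3, which presents formylated peptides, had 770, 1183 and 1273. Of 8 MHC class II genes, 1 was lower in KO (14.5% over all genes) and 1 had a ratio above 1, with a median of -0.21. For KOE vs. KO the medians were 0.03 for class I and 0.20 for class II. The class II chains H2-Aa and H2-Eb1 had 15037, 12526 and 13698, and 9522, 7953 and 9249, and H2-Oa, which tunes peptide loading, had 172, 91.8 and 124.

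**Figure D5:**
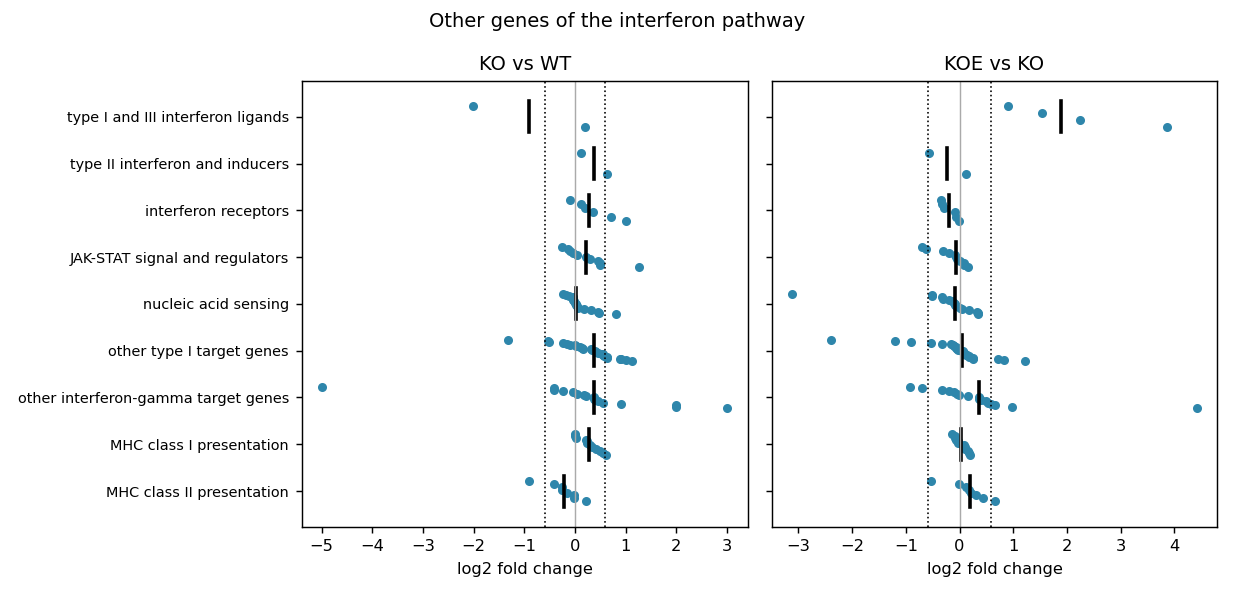
Log2 fold changes of other interferon pathway genes that reach 40 on either array, for KO vs. WT (left) and KOE vs. KO (right). Each point is a gene, black bars are list medians, dotted lines mark 1.5-fold and the panels differ in range. The 12 class I genes center on 0.27 and the 8 class II genes on -0.21 in KO vs. WT.

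Markers of the cells that make or answer interferon were counted on the same arrays. Over all genes, 10.9% were higher and 14.5% lower in KO vs. WT, and 10.9% and 5.33% in KOE vs. KO. Of 15 measured T and natural killer cell genes, 9 reached 40 in WT or KO, 1 was higher in KO (Cd8a) and none was lower, and the list summed to 4263 (WT), 4664 (KO) and 4425 (KOE). Cd4, Cd8b1, Gzma, Gzmb, Ncr1 and Tbx21 were under 40 on each array, and none of the marker signals was 0. Zap70, the strongest of the list, had 2295, 2269 and 2084. Of 8 plasmacytoid dendritic cell genes, 3 were lower in KO against WT (Siglech and Spib, both under 40 in KO, and Cox6a2, also a gene of muscle mitochondria). In KOE vs. KO the same 3, of 7, were higher, and Siglech and Spib passed 40 only through KOE. This list summed to 4846, 4710 and 6019, and its strongest gene was Tcf4, with 3870, 3979 and 4697.

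No macrophage gene of 13 was past the cut-off in KO vs. WT. In KOE against KO 5 were lower, where 5.33% of all genes were lower and 10.9% higher. The macrophage sums were 21339, 25175 and 16459, with Lyz2 at 6906, 8702 and 5189. Of 7 neutrophil genes, 4 were higher and 1 was lower in KO against WT (Elane, which passed 40 only through WT). Of the 4 higher, Mpo, Ngp and Csf3r passed 40 only through KO, and 10.9% of all genes were higher. With signals under 40 set to 40, the list median fell from 0.71 to 0.25. For KOE against KO 5 were lower (Ltf and Csf3r under 40 in KOE) and 1 was higher (Elane, which passed 40 only through KOE). The sums were 1373, 1685 and 857. S100a8, the strongest, had 982, 815 and 293 and is also made by keratinocytes. Conventional dendritic and Langerhans cell genes had 0 of 8 past the cut-off in KO vs. WT and 2 of 8 higher in KOE than in KO, with sums of 10233, 10346 and 10511, most of it from Epcam (7389, 7598 and 8136). B and plasma cell genes had 0 of 5 and 1 of 6 higher. The 1 was Ms4a1 (31.1, 21.8 and 89.1), which passed 40 only through KOE and so had to be higher. The list had sums of 12042, 9756 and 13402, most of it from Sdc1 (11754, 9458 and 13052). Epcam and Sdc1 are epithelial genes too. The part of these cells in the members' differences was not tested.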

How the data were processed

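Total RNA of mouse back skin was measured on 3 arrays, 1 pool per group (5 WT, 7 KO and 6 KOE mice). The authors deposited probe set intensity values on a linear scale, made with Affymetrix Microarray Analysis Suite in R, and the 2% trimmed mean of each array was checked to be 500. Medians were 116, 96.3 and 108 and 30769, 29390 and 31298 probe sets reached 40. Raw images and detection calls were not analysed here. No column of per-sample values was left out. Precision is limited by 1 array per group.

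Control probe sets were dropped. Gene names came from the platform annotation, which gave 34945 probe sets with 1 gene name, 932 with several and 9160 unnamed here, and 34741 names were matched by gene identifier. Ratios were formed with no further scaling. Every member was named, and for each pathway list the 2 strongest genes and the 2 with the largest differences past the cut-off in KO vs. WT and in KOE vs. KO. For each cell or tissue list the strongest gene was named, and genes beyond this rule were chosen after their values were seen (Ifng, Ifna11, Cxcl11, Batf2, Ifi47, Sp110, Col1a1 and the other markers). Members and lists were chosen with earlier results of these data known. Alternatives were 3 scalings (common median, quantile, cyclic loess with span 0.7 and 3 iterations), 4 changes of the limits, an offset of 40 and 2 other readings of probe sets. The procedure was tested on simulated data. The tools were R 4.3.3 (limma 3.58.1) and Python 3.11.15 (matplotlib 3.10.9, numpy 2.4.6, pandas 2.3.3).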

Additional observations from a re-analysis of the deposited data

How the results depend on the processing

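The members higher in KO than in WT numbered 14 after median scaling, which holds all 7 named above, and 1 with a ratio of at least 2 (Rsad2). Over all genes 4.27% were higher with a ratio of at least 2. Dhx58 dropped out, leaving 0 lower, after median, quantile or cyclic loess scaling, with 40 in both arrays, a limit of 100, an offset of 40, a ratio of 2 or the mean of all probe sets, and with no signal limit 2 were lower. In KO vs. WT the type I type median was 0.27, 0.26 and 0.21 after median, quantile and cyclic loess scaling, in place of -0.00. For KOE vs. KO the same scalings gave -0.16, -0.15 and -0.17, and median scaling turned the median of the members from 0.12 to -0.042. There, 1 member was higher after median or quantile scaling or with the offset and 0 with a ratio of 2, and 2 were lower after quantile or cyclic loess scaling and 0 with 40 in both arrays. Over all genes in KOE vs. KO, 6.26% were higher with the offset and 5.26% with a ratio of 2, and 3.36% were lower with 40 in both arrays. In KOE vs. WT, 0 members were lower with 40 in both arrays and 2 with no limit, and 1 was higher with a ratio of 2. The shares over all genes were 7.83%, 13.5% and 4.84%. Tap1 in KOE vs. WT was -0.25 as the mean of its probe sets, of which 3 are under 40. Of called members, 87.5% lay on the higher side in KO vs. WT and 100% after each scaling. For KOE vs. KO it was 2 of 3, against 1 of 2 (median), 2 of 4 (cyclic loess) and 1 of 3 (quantile). Median scaling moved the median of all genes from 0.01 to 0.29 in KO vs. WT, where 23.2% were then higher and 8.88% lower. In KO vs. WT the median of the members stayed 0.20 to 0.30 above that of all genes under these alternatives. The cause of these shifts was not tested. Of the values of single members under an alternative, 545 shifted by less than the probe set SD of that comparison at signals of 200 to 1000. Of the rest, 30 moved by more and 1 reversed. Only members past the cut-off could count as reversed. In KO vs. WT, Ifit3, Oas1a, Oasl1, Oasl2, Bst2 and Gbp3 turned from below to above 0 after median scaling and are among the 545. No paired analysis was possible because each group has 1 array of pooled RNA. Signals under 200 limit what can be read of the Mx, Oas and ligand genes.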
